A study of Chlamydomonas reinhardtii with 9 samples.

Results

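The LHCBM family encodes the chlorophyll a/b-binding proteins of the major light-harvesting complex of photosystem II (LHCII) in the green alga Chlamydomonas reinhardtii. Its members were taken as every row of the deposited expression table whose gene name begins with LHCBM and a digit, which gave 8 of 17301 rows: LHCBM1, LHCBM2, LHCBM3, LHCBM4, LHCBM5, LHCBM6, LHCBM8 and LHCBM9. The descriptions in the table call all 8 LHCII or photosystem II antenna proteins, so the label of the family and its annotation match. Strain CC-4532 was grown photoheterotrophically in Tris-acetate-phosphate (TAP) medium under continuous light to mid-logarithmic phase. The cells were then collected, washed in TAP lacking Fe-EDTA and moved into fresh TAP of the same kind. Total RNA was sequenced on an Illumina HiSeq from cells taken at 0 and 0.5 h, at 1, 2 and 4 h, at 8 and 12 h and at 24 and 48 h. The 9 groups share the strain, the light, the acetate and the absence of added iron, and 0 h stands for cells just washed without iron. No culture kept in iron is among the samples, so the loss of iron, the fresh medium and the age of the culture cannot be told apart. The table holds 2 columns per time, biological duplicates by the series design, and 18 columns in all. Depth, recovered from the values, was 13.2 M to 33.4 M reads per library.

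LHCII proteins are encoded in the nucleus, made in the cytosol, imported into the chloroplast and inserted into the thylakoid membrane, where they bind chlorophylls and xanthophylls and assemble into trimers. The trimers pass excitation energy mainly to photosystem II, part of them can move to photosystem I in state transitions, and some members take part in the dissipation of excess light. By protein sequence the family is usually sorted into type I (LHCBM3, LHCBM4, LHCBM6, LHCBM8 and LHCBM9), type II (LHCBM5), type III (LHCBM2, with a near-identical LHCBM7) and type IV (LHCBM1). Because members of a type are much alike, and how the authors' counting divided shared reads is not known, values of a single member are uncertain and the sum over the family is safer. All values are RPKM, in which reads are divided by transcript length and by library size. The lengths that turn the values into whole reads were 355 bases for LHCBM4, 515 for LHCBM6, 529 for LHCBM2, 609 for LHCBM3, 761 for LHCBM8, 790 for LHCBM1, 1112 for LHCBM5 and 2051 for LHCBM9, and need not be full transcript lengths. Levels, orders and shares between members therefore depend on these lengths, while changes of a single member do not. The values are shares of the RNA sequenced, so a change in family transcripts per cell and a change in the rest of the RNA cannot be told apart.

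The family as a whole rose for 12 h, and by 48 h had fallen far below its starting level. Its summed level was 21165 and 17473 RPKM in duplicates 1 and 2 (0 h), 21971 and 18431 (0.5 h), 30619 and 25464 (1 h), 41966 and 39276 (2 h), 56641 and 56818 (4 h), 88427 and 84308 (8 h), 107269 and 98583 (12 h), 10516 and 11822 (24 h), and 2727 and 1742 (48 h). Both duplicates lay above both 0 h duplicates at 1 to 12 h and below them at 24 and 48 h, while the 0.5 h duplicates overlapped those of 0 h. On the log2(RPKM + 1) scale the sum changed by 1.08 after 2 h, 1.56 after 4 h, 2.17 after 8 h and 2.42 after 12 h relative to 0 h (SE 0.13, limma-trend adjusted p = 1.53e-05, 6.66e-07, 3.49e-08 and 5.47e-09). It had fallen by 3.14 at 48 h (adjusted p = 3.92e-10, limma-trend). A change was called where the adjusted p was under 0.05 and the change 2-fold or more, and the comparisons with 0 h share the 0 h columns. The sum did not reach 2-fold at 1 h (0.54, limma-trend adjusted p = 0.00369) or at 24 h (-0.79, adjusted p = 0.000178). After centring each column on its median the 24 h value was -1.11 and was called.

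At its peak the family made up a large part of the summed RPKM. This share depends on the lengths given above and is not the share of reads. Its share of all summed RPKM was 3.69 and 3.03% (1 h), 4.89 and 4.61% (2 h), 6.22 and 6.31% (4 h), 10.2 and 9.74% (8 h), and 12.2 and 11.1% (12 h). At 12 h, 6 members ranked among the first 51 rows of 17301 in duplicate 1, and LHCBM1 was the most abundant transcript in both duplicates. By 48 h LHCBM1 had rank 139 in duplicate 1 and 192 in duplicate 2. As reads of the family lower the RPKM of all other rows, a second scaling was tried. Each column was divided by the share of its summed RPKM that lay outside the family. The change of the sum was then 2.56 at 12 h and -3.17 at 48 h.

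**Figure D1:**
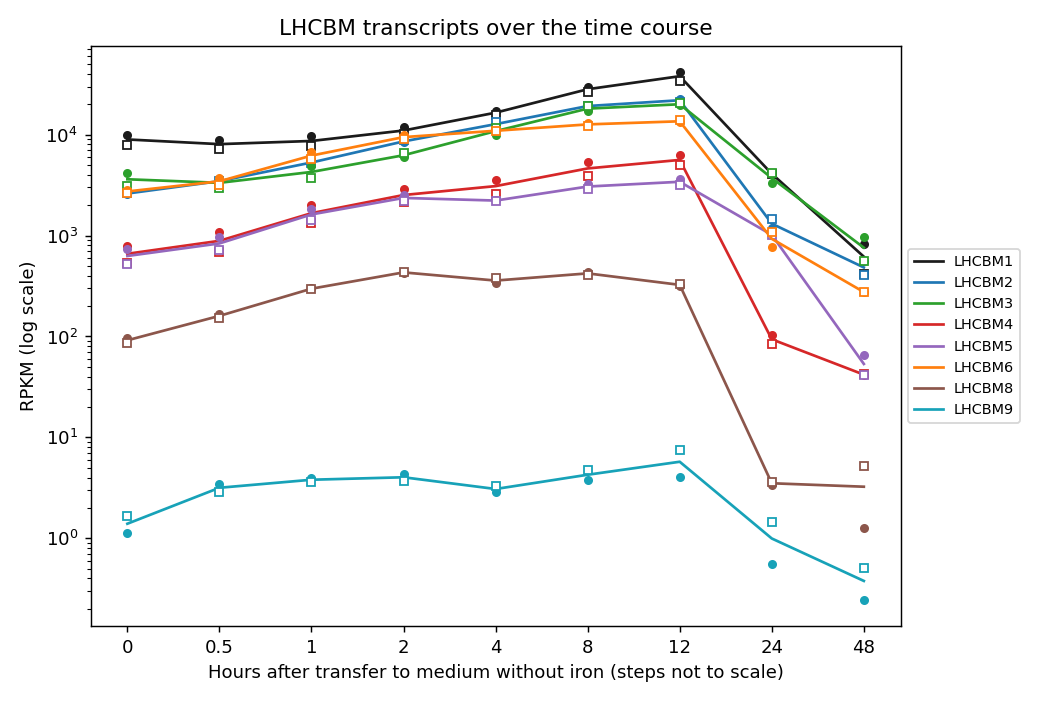
RPKM of the 8 LHCBM transcripts (log scale) against hours in medium without iron, with a line through the mean of each time and a point for each duplicate. All lines except that of LHCBM8 peak at 12 h, all drop between 12 and 24 h, and LHCBM9 runs far below the others.

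Most members rose within the first hour, and LHCBM1 and LHCBM3, the most abundant members at 0 h, came later. At 0.5 h no member was called in either direction by limma-trend, while 5.64% of the 13077 genes tested were called higher and 3.48% lower; at an unadjusted p below 0.05, 6 members were higher and 0 lower, beside 39.3% of genes higher and 20.3% lower. At 1 h 6 of 8 members were called higher, against 8.38% of all genes. LHCBM1 and LHCBM3 were not called there, and LHCBM2 and LHCBM9, just past 2-fold, were no longer called after centring. The count was again 6 of 8 at 2 h (9.44% of all genes were higher) and at 4 h (5.99%), where LHCBM3 had joined and LHCBM9 was under 2-fold. All 8 were called higher at 8 h (7.36%) and at 12 h (10.1%). None was called lower at 1 to 12 h, where 4.95, 7.18, 11.8, 13.9 and 18% of all genes were lower at 1, 2, 4, 8 and 12 h, and at an unadjusted p below 0.05 the count was also 0, where 21.4, 29.4, 37.1, 43.3 and 42.9% of genes were lower at those times. From 2 to 12 h both duplicates of all 8 members lay above both 0 h duplicates. The same held for 39.6, 33.2, 29.2 and 32.9% of all genes at 2, 4, 8 and 12 h.

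The rise was spread over the intervals up to 12 h, and the fall over the longer ones from 12 to 24 h and from 24 to 48 h. No member was called higher in any single interval from 0 to 12 h, where limma-trend called 5.64, 0.13, 0.115, 0.291, 1.67 and 0.933% of genes higher, in order of time; at an unadjusted p below 0.05, 6, 5, 6, 4, 5 and 2 members were higher in the 6 intervals in turn, beside 39.3, 16.6, 10.4, 6.46, 20.9 and 20.4% of all genes. The summed level changed by 0.47, 0.54, 0.48, 0.61 and 0.25 on the log2 scale between neighbouring times from 0.5 to 12 h. Between 12 and 24 h all 8 members were called lower, against 2.24% of all genes (14.6% were higher). With a pseudocount of 5 the count was 7, since LHCBM9 (-0.83) came under 2-fold. In that interval the sum fell by 3.21 (SE 0.13, limma-trend adjusted p = 1.2e-09), to 10516 and 11822 RPKM at 24 h, against 107269 and 98583 at 12 h. The median over all genes moved by 0.40 the other way. Between 24 and 48 h 6 of 8 were called lower, against 16.1% of all genes (7.43% were higher), and the sum fell by a further 2.35 (limma-trend adjusted p = 9.04e-09). At 24 h 5 of 8 stood lower than at 0 h, against 6.39% of all genes, and at 48 h 7 of 8, against 15.8%. No member was called higher at either time, where 14.8 and 18.4% of all genes were, and at an unadjusted p below 0.05 the count was 1 (LHCBM5) at 24 h and 0 at 48 h, beside 50.7 and 44.4% of all genes. Without duplicate 1 of 24 h the 24 h count was 3, since LHCBM1 (-0.97) and LHCBM2 (-0.83) came under 2-fold.

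**Figure D2:**
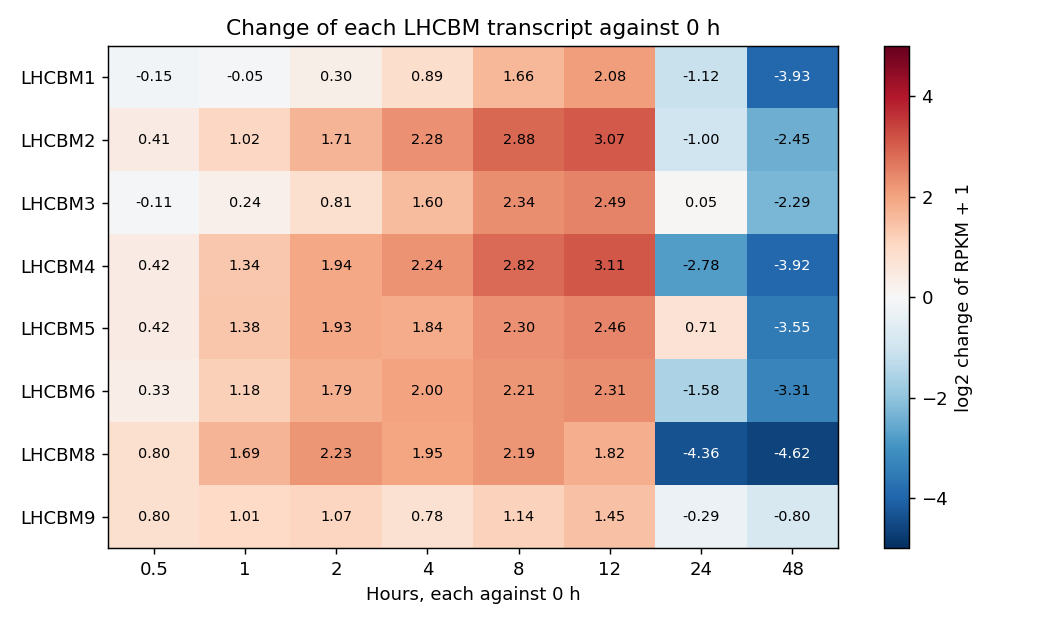
Change of each LHCBM transcript at each time relative to 0 h, as log2 of RPKM + 1, with the value in each cell. The cells from 1 to 12 h are higher for most members, LHCBM1 and LHCBM3 turn last, and at 24 h LHCBM5 alone keeps a value above 0.5.

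LHCBM1 (Cre23.g766250), the type IV member, is needed for full dissipation of excess light energy in this alga. Its level was 9947 and 7996 RPKM (0 h), 8934 and 7190 (0.5 h), 9638 and 7696 (1 h), 11882 and 10122 (2 h), 17273 and 15797 (4 h), 30042 and 26432 (8 h), 41532 and 34448 (12 h), 4149 and 4047 (24 h), and 822 and 413 (48 h). Through 1 h its duplicates overlapped those of 0 h, and duplicate 2 was lower than duplicate 1 at 9 of 9 times. It was first called at 8 h, with a log2 change of 1.66 (SE 0.16, limma-trend adjusted p = 1.19e-06). At 4 h its change was 0.89, which became 1.01 and was called after centring. The level at 48 h was 14.5-fold lower than at 0 h.

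LHCBM2 (Cre12.g548400), the type III member, has been tied to state transitions. Its level was 2598 and 2627 RPKM (0 h), 3427 and 3502 (0.5 h), 5311 and 5291 (1 h), 8396 and 8763 (2 h), 12236 and 13216 (4 h), 19281 and 19181 (8 h), 22581 and 21324 (12 h), 1180 and 1445 (24 h), and 563 and 404 (48 h). The duplicates of each time from 0.5 h to 12 h lay above those of the time before, and the mean level at 12 h was 8.40-fold that at 0 h, a factor that LHCBM4 alone exceeded (8.52-fold). Its fall to 1312 RPKM at 24 h, against 21953 at 12 h, was 16.7-fold.

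LHCBM3 (Cre32.g781300), a type I member and one of the main components of the trimers, rose later than most members. Between 12 and 24 h it fell less than LHCBM1, though by more than LHCBM5 and LHCBM9. Its level was 4155 and 3076 RPKM (0 h), 3676 and 2994 (0.5 h), 4856 and 3691 (1 h), 5989 and 6522 (2 h), 10033 and 11666 (4 h), 17028 and 19228 (8 h), 19581 and 20487 (12 h), 3287 and 4142 (24 h), and 957 and 560 (48 h). The 24 h duplicates overlapped those of 0 h (a log2 change of 0.05 with an SE of 0.22, limma-trend adjusted p = 0.859), a value that was -0.28 after centring. It was the most abundant member at 48 h in both duplicates.

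LHCBM4 (Cre06.g283950) and LHCBM6 (Cre06.g285250) are type I members. LHCBM4 had 789 and 532 RPKM (0 h), 1997 and 1340 (1 h), 2895 and 2152 (2 h), 3587 and 2600.0 (4 h), 5369 and 3892 (8 h), 6288 and 4959 (12 h), 103 and 84.6 (24 h), and 41.2 and 42.5 (48 h). LHCBM6 had 2846 and 2630 RPKM (0 h), 6690 and 5728 (1 h), 9851 and 9074 (2 h), 10907 and 10974 (4 h), 13044 and 12260 (8 h), 13313 and 13851 (12 h), 777 and 1080 (24 h), and 276 and 275 (48 h). Their changes were alike up to 2 h, when the log2 change was 1.79 for LHCBM6 and 1.94 for LHCBM4, and then parted. After 12 h that of LHCBM6 was 2.31 and that of LHCBM4 3.11, nearer to LHCBM2 (3.07). Over the 9 time means their correlation was the highest of any pair of members (Pearson r = 0.99), a description over levels from the same libraries. Their falls after 12 h differed in size: LHCBM4 at 24 h was 59.9-fold below its 12 h level, and LHCBM6 14.6-fold.

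LHCBM8 (Cre06.g284250), also of type I, was a minor member whose mean did not go above its 2 h value later on. Its level was 97.2 and 86.2 RPKM (0 h), 168 and 152 (0.5 h), 300 and 296 (1 h), 431 and 433 (2 h), 337 and 379 (4 h), 440 and 404 (8 h), 319 and 330 (12 h), 3.38 and 3.64 (24 h), and 1.26 and 5.22 (48 h). Its mean was highest at 2 h (432 RPKM), was almost as high at 8 h (422 RPKM), and no duplicate from 2 to 12 h was under 319 RPKM. The fall to 24 h was 92.6-fold against 12 h, on 73 and 45 reads at 24 h. The 48 h level rests on 21 reads in duplicate 1 and 133 in duplicate 2, and its change relative to 0 h ranged from -5.36 to -3.88 when single columns were left out. Its change between 24 and 48 h (-0.26) became 0.47 without duplicate 1 of 48 h and -1.0 without duplicate 2.

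LHCBM9 (Cre06.g284200), the type I member known from sulfur and nitrogen starvation and hydrogen production in this alga, was hardly expressed. Its level was 1.14 and 1.65 RPKM (0 h), 3.46 and 2.88 (0.5 h), 3.99 and 3.62 (1 h), 4.38 and 3.67 (2 h), 2.87 and 3.29 (4 h), 3.76 and 4.77 (8 h), 4.05 and 7.42 (12 h), 0.550 and 1.44 (24 h), and 0.245 and 0.510 (48 h). These levels rest on 11 to 379 reads per library, and at this depth they lie near 1 RPKM, where the pseudocount matters. Its calls at 1, 2, 8 and 12 h were lost with a pseudocount of 5 (0.73 in place of 1.45 at 12 h), and that at 1 h also without duplicate 1 of 0 h (0.96) or of 1 h (0.83), as was that at 2 h without duplicate 1 of 2 h (0.84). Further, at 48 h its change was -0.80 and not called, or -1.68 and called with a pseudocount of 0.1. Its fall from 12 to 24 h (-1.75) was likewise not called with a pseudocount of 5 (-0.83). At no time did LHCBM9 exceed 0.03% of the family sum.

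LHCBM5 (Cre03.g156900), the type II member, has been found in LHCII attached to photosystem I in state transitions. Its level was 732 and 524 RPKM (0 h), 958 and 715 (0.5 h), 1822 and 1419 (1 h), 2517 and 2207 (2 h), 2265 and 2183 (4 h), 3220.0 and 2906 (8 h), 3652 and 3178 (12 h), 1014 and 1019 (24 h), and 65.6 and 41.3 (48 h). Among the 8 members, its duplicates alone both lay above both 0 h duplicates at 24 h (0.71, SE 0.13, limma-trend adjusted p = 0.000351, under 2-fold), as did those of 53.5% of all genes. It then dropped 19.0-fold between 24 and 48 h, further than any other member in that interval.

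**Figure D3:**
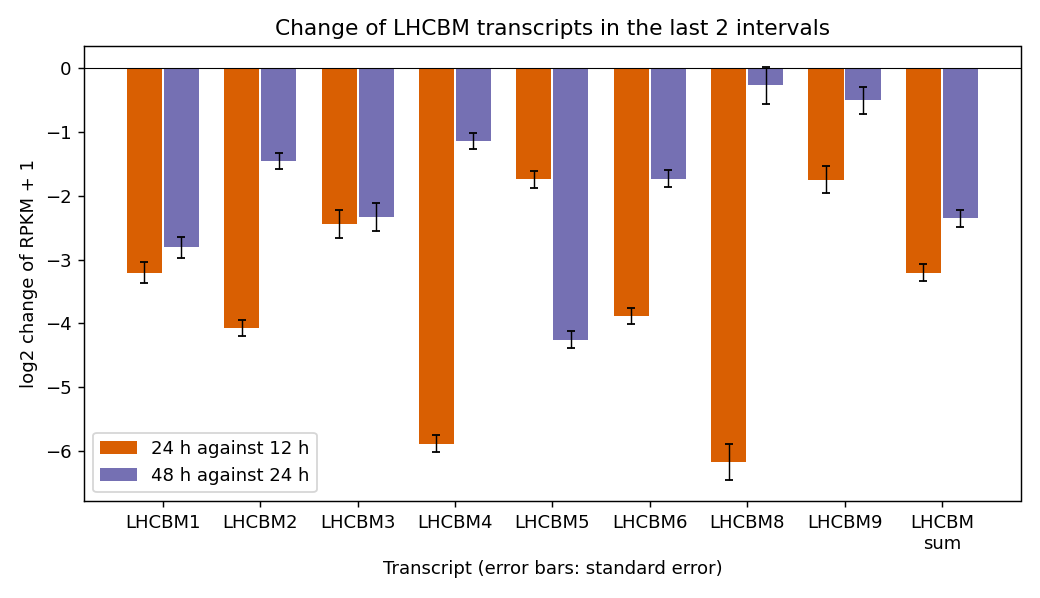
Change of each LHCBM transcript and of their sum, as log2 of RPKM + 1, at 24 h relative to 12 h and at 48 h relative to 24 h, with standard errors. LHCBM8 and LHCBM4 have the longest bars in the first interval, LHCBM5 in the second.

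The fall after 12 h set the members apart. LHCBM8 fell by 6.18 on the log2 scale (SE 0.29, limma-trend adjusted p = 2.65e-09) and LHCBM4 fell by 5.89 (SE 0.13, adjusted p = 1.45e-11), the largest and the next largest falls of all 13077 genes in that interval, and their order was reversed with a pseudocount of 5. The changes of the other members were -4.07 for LHCBM2, -3.89 for LHCBM6, -3.21 for LHCBM1, -2.44 for LHCBM3, -1.75 for LHCBM9 and -1.74 for LHCBM5. Each member was also compared with LHCBM1 within the same column. A difference was counted only where it passed an adjusted p of 0.05 both with a spread shared across genes and with the spread of that row alone, because subtracting LHCBM1 puts its noise into every row. By this rule LHCBM8 (-2.97), LHCBM4 (-2.68), LHCBM2 (-0.86) and LHCBM6 (-0.68) fell more than LHCBM1 (limma-trend adjusted p = 1.17e-16, 1.17e-18, 3.61e-05 and 0.00157, and 0.000532, 2.43e-05, 2.33e-06 and 0.0121 by the row alone). In the whole table only 8 of 13076 genes (0.0612%) did so with the shared spread, 4 members among them. The rest were LHCA4, LHCA5 and LHCA6 of the photosystem I antenna and a row without a name (Cre12.g548950), of which LHCA5 did not pass with the spread of its own row (adjusted p = 0.0652, limma fit). LHCBM3 (0.77), LHCBM5 (1.46) and LHCBM9 (1.46) fell less than LHCBM1, as did 99.8% of all genes. The size of the LHCBM9 change depends on the pseudocount, since its 24 h level lies near 1 RPKM. By mean RPKM the fall was 9.27-fold for LHCBM1, 5.76-fold for LHCBM9, 5.39-fold for LHCBM3 and 3.36-fold for LHCBM5.

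The order was different in the last interval. LHCBM5 fell by 4.26 (SE 0.13, limma-trend adjusted p = 1.01e-10), which is -1.45 relative to LHCBM1 (adjusted p = 5.42e-10, and 2.07e-06 by the row alone). Such a fall beyond that of LHCBM1 was found for 0.597% of genes. The change was -2.81 for LHCBM1, -2.33 for LHCBM3, -1.73 for LHCBM6, -1.45 for LHCBM2 and -1.14 for LHCBM4. LHCBM4 was under 2-fold after centring (-0.98) and without duplicate 1 of 48 h (-0.88). LHCBM8 (-0.26) and LHCBM9 (-0.50) were not called, though LHCBM9 was called with a pseudocount of 0.1 (-1.12). The change of each of the 6 members other than LHCBM5 was less negative than that of LHCBM1, as it was for 97.8% of all genes. For LHCBM3 this was lost without duplicate 1 of 24 h (adjusted p = 0.129, limma-trend) and without the block for duplicate number (0.0815).

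On the way up several members changed more than LHCBM1. At 1 h, 6 of the 7 other members had a change above that of LHCBM1, from 1.06 (LHCBM9) to 1.74 (LHCBM8), with limma-trend adjusted p from 4.09e-08 to 0.000506. That of LHCBM9 did not pass without the block for duplicate number (adjusted p = 0.115) or with a pseudocount of 5 (0.0828). LHCBM3 did not differ from LHCBM1 by the test at 1 h (0.29, limma-trend adjusted p = 0.245). The change of LHCBM1 itself was -0.05 at 1 h, and 28.7% of all genes were above it. The background was narrower later: 2% of genes at 4 h and 0.925% at 8 h exceeded the change of LHCBM1, and LHCBM2, LHCBM3, LHCBM4, LHCBM5 and LHCBM6 did so at both times. Without duplicate 2 of 0 h, LHCBM3 did not pass at 4 h (adjusted p = 0.0681, limma-trend), nor did LHCBM3 (0.0646), LHCBM5 (0.0523) and LHCBM6 (0.064) at 8 h, where LHCBM6 was also lost without duplicate 1 of 8 h (0.113) and without the block (0.0839). At 12 h LHCBM4 (1.02) and LHCBM2 (0.99) still exceeded it (limma-trend adjusted p = 2.25e-05 and 4.03e-06), against 0.818% of genes, and with LHCBM3 3 of the 7 did. LHCBM3 was at the threshold there (0.40, limma-trend adjusted p = 0.0499), and without the block its adjusted p was 0.143. LHCBM9 went the other way on the shared spread, at -0.52 after 8 h and -0.63 after 12 h relative to LHCBM1 (limma-trend adjusted p = 0.0439 and 0.0151), though not by the row alone (adjusted p = 0.121 and 0.0679). Neither difference passed without the block (limma-trend adjusted p = 0.246 and 0.16). With a pseudocount of 0.1 they were only -0.10 and -0.16 (limma-trend adjusted p = 0.774 and 0.649). Changes below that of LHCBM1 were found for 94.7% of genes after 8 h and 96.4% after 12 h. At 24 h LHCBM5 (1.84), LHCBM3 (1.17) and LHCBM9 (0.83) had a change above that of LHCBM1, as had 88.3% of genes, and LHCBM8 (-3.24) and LHCBM4 (-1.66) one below it, as had 2.48%. The value of LHCBM9 did not pass without the block (adjusted p = 0.0781, limma-trend) or with a pseudocount of 0.1 (0.56, adjusted p = 0.119). At 48 h, 4 of the 7 had a change above that of LHCBM1 by both spreads, as had 99% of genes. Of the 4, LHCBM9 (3.14, limma-trend adjusted p = 1.91e-19) depends in size on the pseudocount, since its 48 h level is under 1 RPKM. By mean RPKM it stood 3.69-fold below its 0 h level, and LHCBM1 14.5-fold. The others were LHCBM3 (1.65), LHCBM2 (1.48) and LHCBM6 (0.63), with limma-trend adjusted p = 6.51e-12, 1.13e-10 and 0.00352. Without duplicate 2 of 48 h that of LHCBM6 did not pass (0.23, adjusted p = 0.107, limma-trend). At this time LHCBM8 was below LHCBM1 with the shared spread (-0.69, limma-trend adjusted p = 0.0141), as were 0.467% of genes, and not by the row alone (adjusted p = 0.232), and without duplicate 1 of 48 h its value was 0.43.

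These differences changed the make-up of the LHCBM transcript pool. LHCBM1 made up 47.0 and 45.8% of the summed level at 0 h, 31.5 and 30.2% (1 h), 28.3 and 25.8% (2 h), 30.5 and 27.8% (4 h), 34.0 and 31.4% (8 h), 38.7 and 34.9% (12 h), 39.5 and 34.2% (24 h), and 30.2 and 23.7% (48 h). Its share was thus lowest at 2 and 48 h and did not return to that of 0 h. LHCBM6 had a larger share early, with 23.5 and 23.1% at 2 h, against 13.4 and 15.1% at 0 h. LHCBM2 reached 21.6 and 23.3% at 4 h, against 12.3 and 15.0% at 0 h. LHCBM3 had its larger shares late, with 31.3 and 35.0% (24 h) and 35.1 and 32.2% (48 h), against 19.6 and 17.6% (0 h). LHCBM5 reached 9.64 and 8.62% at 24 h, while LHCBM4 had 0.980 and 0.716% at 24 h, against 5.86 and 5.03% at 12 h. The shares are given as levels without a test, since they must add up to the whole.

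By mean level LHCBM1 led the family at every time but 48 h, though at 24 h LHCBM3 was ahead of it in duplicate 2. At 0 h the order of mean level was LHCBM1, LHCBM3, LHCBM6, LHCBM2, LHCBM4, LHCBM5, LHCBM8 and LHCBM9. LHCBM6 and LHCBM2 all but met at 0 h (2630 RPKM in the lower duplicate of LHCBM6, 2627 in the higher one of LHCBM2), and LHCBM4 and LHCBM5 overlapped. At 12 h it was LHCBM1, LHCBM2, LHCBM3, LHCBM6, LHCBM4, LHCBM5, LHCBM8 and LHCBM9, with no overlap between neighbours. At 48 h LHCBM3, LHCBM1 and LHCBM2 overlapped in level, followed by LHCBM6 and then by LHCBM5 and LHCBM4, which overlapped each other. Between its peak and its lowest mean, LHCBM4 spanned 134-fold, LHCBM8 133-fold, LHCBM5 63.9-fold, LHCBM1 61.5-fold, LHCBM6 49.3-fold, LHCBM2 45.4-fold, LHCBM3 26.4-fold and LHCBM9 15.2-fold.

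The members also share a place in the genome in part. In RefSeq's gene order for the assembly Chlamydomonas_reinhardtii_v5.5, to which 6 of 8 members could be matched by locus tag, LHCBM4, LHCBM9, LHCBM8 and LHCBM6 lie on chromosome 6 in this order. LHCBM9 and LHCBM8 have 0 genes between them, 5 genes lie between LHCBM4 and LHCBM9, and 21 between LHCBM8 and LHCBM6. LHCBM5 lies on chromosome 3 and LHCBM2 on chromosome 12. The direct neighbours LHCBM8 and LHCBM9 differed in level at all times, with means of 325 RPKM for LHCBM8 and 5.73 for LHCBM9 at 12 h. Over the 9 time means the members correlated with one another at Pearson r from 0.75 (LHCBM3 with LHCBM8) to 0.99, a description of levels that come from the same libraries.

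**Figure D4:**
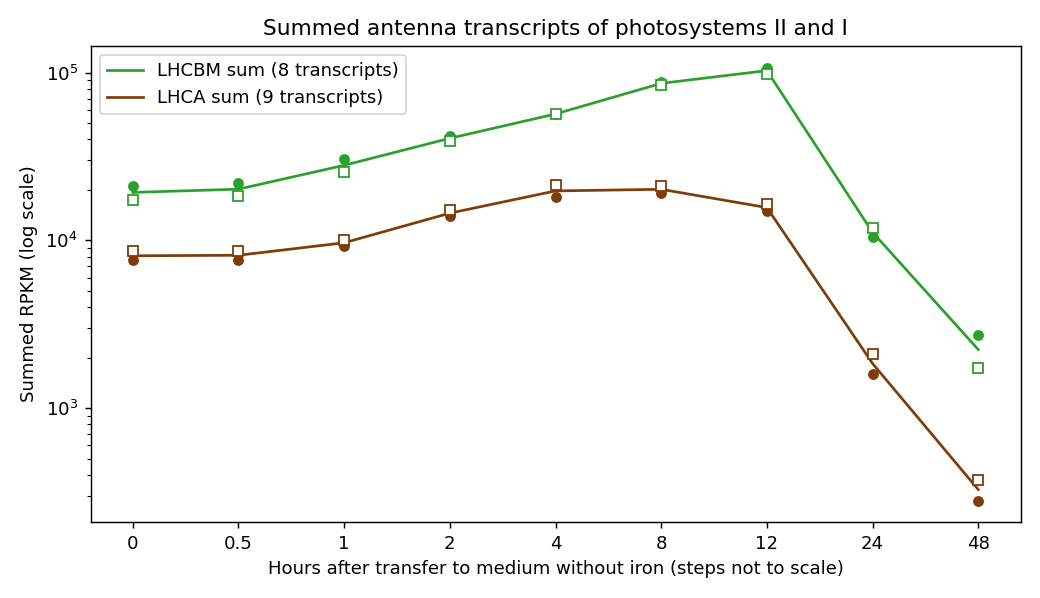
Summed RPKM (log scale) of the 8 LHCBM transcripts and of the 9 LHCA transcripts over time, with a line through the means and a point for each duplicate. The lines run side by side to 4 h, the LHCA line levels off and turns at 8 h, and both drop steeply after 12 h.

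The antenna of photosystem I, encoded by 9 LHCA rows, rose with the LHCBM family and stopped earlier. The summed LHCA level was 7595 and 8588 RPKM (0 h), 18108 and 21331 (4 h), 19097 and 21227 (8 h), 14894 and 16478 (12 h), 1588 and 2100 (24 h), and 281 and 372 (48 h). All 9 LHCA rows were called higher at 4 and 8 h and 4 at 12 h, and all 9 were called lower at 24 and at 48 h. The shares over all genes were 5.99, 7.36 and 10.1% higher at 4, 8 and 12 h, and 6.39 and 15.8% lower at 24 and 48 h. Within the same columns the change of the LHCBM sum exceeded that of the LHCA sum by 0.85 after 8 h, 1.46 after 12 h, 1.36 after 24 h and 1.5 after 48 h (SE 0.16, limma-trend adjusted p = 5.28e-05, 9.5e-08, 1.03e-07 and 2.19e-08, and 0.00239, 0.000122, 0.000102 and 4.68e-05 by the row alone). A change above that of the LHCA sum was found for 2.02% of all genes after 8 h, 5.95% after 12 h, 97.9% after 24 h and 99.5% after 48 h. Up to 4 h the difference was 0.05 to 0.28 and did not pass, though at 1, 2 and 4 h it passed when either 48 h column was left out. In the interval from 12 to 24 h the sums changed by -3.21 for LHCBM and -3.10 for LHCA, a difference of -0.11 (SE 0.16, limma-trend adjusted p = 0.513). Between 4 and 8 h the LHCBM sum changed by 0.57 more than the LHCA sum, which did not pass by the row alone (adjusted p = 0.0588 there, limma fit), and between 8 and 12 h by 0.61 more (limma-trend adjusted p = 0.00453, and 0.0295 by the row alone).

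Of the 3 minor antenna rows, LHCB4 (CP29) and LHCB5 (CP26) link the trimers to the photosystem II core. LHCB4 (1.09) and LHCB5 (1.29) were called higher at 4 h (limma-trend adjusted p = 8.14e-08 and 6.56e-08), all 3 rows at 8 h and 1 at 12 h. Over all genes 5.99, 7.36 and 10.1% were higher at 4, 8 and 12 h. LHCB4 had 3005 and 3118 RPKM (12 h), against 1476 and 1715 (0 h), and LHCB5 had 2283 and 2491 (12 h), against 1228 and 1509 (0 h), both under 2-fold after 12 h. LHCB7 was higher at 12 h (1.74, limma-trend adjusted p = 4.67e-09), and at 48 h LHCB5 (-3.34) and LHCB4 (-1.22) were lower. Most stress-related relatives were lower at 12 h. Of 6 tested rows, 4 were lower (ELI2-1, ELI3, ELI4 and a merged row for LHCSR2 and LHCSR3.1) and 1 was higher, beside 18% lower and 10.1% higher over all genes. The merged LHCSR row, for proteins that dissipate excess light energy, had 1.71 and 0.560 RPKM at 12 h, against 65.8 and 85.8 at 0 h. The higher row was LHCSR1, with 69.1 and 44.6 RPKM at 12 h, against 13.9 and 20.6 at 0 h (1.66, limma-trend adjusted p = 6.23e-05). At 48 h 5 of the 6 were lower, LHCSR1 included (-3.61), beside 15.8% of all genes. PSBS1, at most 1 RPKM at 0 h (0.795 and 0.808), was not tested. The median change at 12 h was -1.68 for the stress-related rows and 0.93 for the LHCA rows, beside -0.14 for all genes.

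Genes for the translation control, targeting and phosphorylation of LHC proteins were called mostly before the LHCBM peak. Of 6 rows, 4 were higher at each of 1, 2 and 4 h, 2 at 8 h and 1 at 12 h, beside 8.38, 9.44, 5.99, 7.36 and 10.1% of all genes at these 5 times. At 1 h these were ALB3.1, the thylakoid insertase (1.87), FTSY, the receptor of the chloroplast signal recognition particle (1.55), NAB1, a cytosolic repressor of LHCBM translation (1.25), and SRP43, a subunit of that particle that binds LHC proteins (1.21), with limma-trend adjusted p from 1.54e-07 to 6.09e-07. SRP54 (-0.10) and the LHCII kinase STT7 (-0.42) were not called at 1 h. The list was drawn by gene name, and the name SRP54 does not show that this row belongs to the chloroplast particle. NAB1 was the row still higher after 12 h, with 178 and 213 RPKM after 12 h, against 60.2 and 69.8 at 0 h, and it was lower after 48 h (-1.13, adjusted p = 9.62e-08, limma-trend). The median change of the list was 1.23 after 1 h, -0.04 after 12 h and -0.61 after 48 h, beside 0.19, -0.14 and 0.14 for all genes.

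Chlorophyll synthesis, which supplies the pigments of LHCII, was also called mostly early. Of 8 rows, 6 were higher after 1 h, 5 after 2 h, 6 after 4 h, 2 after 8 h and 2 after 12 h, and 6 were lower after 48 h. Over all genes 8.38, 9.44, 5.99, 7.36 and 10.1% were higher from 1 to 12 h, and 15.8% lower after 48 h. CHLH1, the large subunit of magnesium chelatase, was higher at 12 h (2.31, limma-trend adjusted p = 2.63e-09), with 160 and 123 RPKM, against 27.7 and 27.2 at 0 h. CAO, the oxygenase that makes the chlorophyll b bound by LHC proteins, was the other (2.26, limma-trend adjusted p = 1.27e-09), with 231 and 173 RPKM at 12 h, against 40.6 and 41.6 at 0 h. CRD1, a diiron enzyme of the pathway, was not called at 12 h (-0.24) and was lower at 48 h, with 8.10 and 10.1 RPKM, against 189 and 251 at 0 h (-4.44, limma-trend adjusted p = 1.73e-11). The list's median change was 1.14 at 1 h and -1.26 at 48 h, beside 0.19 and 0.14 for all genes.

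Pearson r over the 9 time means was taken between the summed LHCBM level and 4930 genes that averaged 10 RPKM or more. Only the LHCBM rows were left out, so other antenna genes were among those compared. The time course most like that of the sum was that of TEF4, described as a rhodanese-like protein (r = 0.987). PSBO, the manganese-stabilising protein of photosystem II, followed with 0.977, and then CP12, a small protein that binds enzymes of the Calvin cycle, with 0.970. TEF4 had a mean of 129 RPKM at 12 h, against 47.8 at 0 h, and PSBO one of 2879 at 12 h, against 1581 at 0 h. Their swings were thus smaller than that of the family sum. These correlations describe 9 means from shared libraries.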

How the data were processed

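Total RNA of 9 times was analysed, with 18 columns of values, 2 per time and 0 not used. The authors deposited values with no unit in the header, and they were taken as RPKM from the values themselves. Bowtie was the aligner, per the submitters' processing notes. Its version is not given in the sources used here, nor are the genome build, the counting tool or any filter. P-values measure the spread between the columns of a time that is left once an offset common to each duplicate number is removed. The design text calls these columns biological duplicates without saying how far they were handled apart.

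Reads per library were solved from the RPKM values (Python 3.11.15, numpy 2.4.6, pandas 2.3.3), as each is a whole number of reads over a length and a library size. The same step gave the lengths and the reads of the members, and none of these entered the fits. With R 4.3.3 and limma 3.58.1, limma-trend was fitted to log2(RPKM + 1) of the 13077 genes that reached 1 RPKM in 3 or more times, plus the LHCBM and LHCA sums. Time was a factor and the number of the duplicate a block, with 8 residual degrees of freedom. P-values were adjusted over all genes by Benjamini-Hochberg, and calls needed an adjusted p below 0.05 and 2-fold. Differences from LHCBM1 and from the LHCA sum used values minus that row in each column, with an adjusted p below 0.05. As this shares the subtracted row's noise among all rows, the fit was repeated without a shared spread, a choice made after the data were seen. The pairing behind the block rests on numbers in the column names. Over 36 pairs of times, differences between duplicates correlated across genes at 0.31 to 0.73, with a median of 0.50. The fit was tested on simulated data. Named genes were all LHCBM rows, the listed antenna, targeting and chlorophyll genes, and the genes most like the LHCBM sum. The members and lists were chosen with earlier results of these data known. Alternatives were median centring, division by the share of summed RPKM outside the family, pseudocounts of 0.1 and 5, other filters, no block, and leaving out each column. Sequences of the members are not printed here. Figures were drawn with matplotlib 3.10.9.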

Additional observations from a re-analysis of the deposited data

How the results depend on the processing

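The sum of the family kept its direction and its side of the threshold at 1, 2, 4, 8, 12 and 48 h under all alternatives run, and so did its falls from 12 to 24 h and from 24 to 48 h. After centring, the sum was -0.068 at 0.5 h, where the main value was 0.07, and -1.11 at 24 h, where it passed 2-fold. LHCBM3 at 24 h became -0.28. The number of members higher at 0.5 h was 1 (LHCBM9) in place of 0 with a pseudocount of 0.1, and 0 to 1 when single columns were left out. The number lower at 24 h was then 3 to 5.

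The LHCBM excess over LHCA passed at 4 h with a pseudocount of 5 (0.28). When single columns were left out it was 0.24 to 0.32 at 1 h, 0.14 to 0.33 at 2 h and 0.19 to 0.37 at 4 h, and it passed at these times when either column of 48 h was left out. Between 24 and 48 h it was -0.23 to 0.51, positive without duplicate 2 of 48 h and negative without duplicate 1. The cause was not tested.

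Small differences turned sign. With a pseudocount of 0.1, LHCBM9 relative to LHCBM1 was 0.22 at 4 h and LHCBM4 relative to LHCBM1 was -0.013 at 48 h. With a pseudocount of 5, LHCBM8 relative to LHCBM1 was 0.33 at 48 h. Leaving out single columns gave -0.29 to 0.075 for LHCBM3 at 0.5 h, -0.20 to 0.29 for LHCBM3 at 24 h, and -0.26 with a range of -1.0 to 0.47 for LHCBM8 from 24 to 48 h. It gave -0.13 to 0.23 for LHCBM3 relative to LHCBM1 at 0.5 h, -0.63 to 0.65 for LHCBM4 and -1.81 to 0.43 for LHCBM8 relative to LHCBM1 at 48 h, and -0.25 to 0.023 for LHCBM9 relative to LHCBM1 at 4 h.

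Without the replicate block the sum was again 2.42 at 12 h, and no call of the sum, of the counts or of the LHCA difference changed. Some differences from LHCBM1 no longer passed, such as those of LHCBM9 at 1 h (adjusted p = 0.115, limma-trend) and 24 h (0.0781) and of LHCBM3 at 2 h (0.196). Depth limits LHCBM9 throughout and LHCBM8 at 24 and 48 h, which rest on few reads.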
